A study of Mus musculus with 5 samples.

Results

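Fc gamma receptors bind the constant region of immunoglobulin G, and complement receptors bind fragments of complement proteins. Both let macrophages sense antibody-coated or complement-coated targets. The 7 genes described here are the 4 mouse Fc gamma receptor genes Fcgr1, Fcgr2b, Fcgr3 and Fcgr4, the shared signalling chain gene Fcer1g, and the receptor genes C3ar1 and C5ar1 for the complement fragments C3a and C5a. They were chosen by name and matched by symbol to the Ensembl identifiers of the count files. All 7 were found among 46983 genes, and all 7 were among the 14580 genes with enough counts to be tested.

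As background, the products of Fcgr1, Fcgr3 and Fcgr4 are activating receptors. They need the FcR gamma chain, the product of Fcer1g, whose immunoreceptor tyrosine-based activation motif (ITAM) recruits the kinase Syk. The product of Fcgr2b is the inhibitory receptor and carries the opposing inhibitory motif (ITIM), which recruits the phosphatase SHIP1. C3aR and C5aR1 are G protein-coupled receptors found mainly on myeloid cells. Fcgr1 and Fcgr4 are known to be raised by interferon gamma in mouse macrophages.

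The RNA came from EO771 tumours, grown from a mouse mammary carcinoma line in the mammary gland of C57/BL6 mice. In the Treg-ablated group, regulatory T (Treg) cells were depleted with diphtheria toxin, given in 2 doses of 50 µg per kg, and sorting followed on day 4 (2 libraries). The control group (3 libraries) received no toxin, so toxin exposure and Treg loss cannot be told apart, and its day of sorting is not given in the sources used here. The allele that made Treg cells sensitive to the toxin, the age of the mice and whether animals were pooled are not given in the sources used here. Both groups were sorted as CD45+ CD11B+ Ly6G- F4/80+ tumour-associated macrophages. Nothing states that the libraries of a group were separate animals, so the spread that p-values rest on may be technical. In total, 13122668 to 20156835 counts were assigned to genes per library.

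By summed counts the marker genes went against the sorted label, with fibroblast markers far above macrophage markers. Fibroblast markers (14 genes) summed to 10820 to 13130 CPM (counts scaled to a library size adjusted by TMM, the trimmed mean of M values) across the 5 libraries. Col3a1 gave 72.8% of those counts. Of the 14 genes 8 were lower and 1 higher (edgeR test described below), and 5 were lower without control replicate 2. Epithelial markers (6 genes) summed to 258 to 300 CPM in Treg-ablated and 291 to 317 CPM in control libraries. The 18 listed mature macrophage markers summed to 974 to 1008 CPM in Treg-ablated and 1270 to 1339 CPM in control libraries, and Axl, which fibroblasts also express, gave 66.6% of those counts. Without Axl, the other 17 summed to 250 to 300 CPM in Treg-ablated and 458 to 483 CPM in control libraries. The 4 genes of the sort gate (Ptprc, Itgam, Adgre1 and Ly6g) together had 48.8 to 56.6 CPM across the 5 libraries. Adgre1, which encodes F4/80, had 5.73 to 9.87 CPM. The libraries are therefore read as mixtures, in which fewer cells of a type and less RNA per cell cannot be told apart.

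Sequence upstream of the start sites is shown because Fcgr1 and Fcgr4 are both interferon gamma targets by background, while C5ar1 had the profile nearest to Fcgr1 among the 7 genes. The 250 bases before the RefSeq start (GRCm38.p6) were searched on both strands for TTCNNNGAA, the gamma-activated site (GAS), and for GAGGAA, a core of the box bound by the myeloid factor PU.1. Sequences of all 7 genes were matched, in 8 windows, since Fcgr3 has more than 1 annotated start. The Ensembl spans of Fcgr2b and Fcgr3 cover their windows wholly, and that of C5ar1 covers most of its window. Sequence before the Ensembl starts of these genes was not searched. Fcgr1, Fcgr4 and C5ar1 are shown 5′ to 3′ along each gene, in lower case with matches in capitals. The Fcgr1 window is chr3:96293970-96294219 (minus strand), that of Fcgr4 is chr1:171018676-171018925 (plus strand) and that of C5ar1 is chr7:16259339-16259588 (minus strand).
Fcgr1: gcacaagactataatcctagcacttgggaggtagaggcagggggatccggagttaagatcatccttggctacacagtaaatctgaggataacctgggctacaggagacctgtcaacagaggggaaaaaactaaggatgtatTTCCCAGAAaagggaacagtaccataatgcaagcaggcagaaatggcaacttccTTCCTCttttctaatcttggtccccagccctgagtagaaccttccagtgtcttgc
Fcgr4: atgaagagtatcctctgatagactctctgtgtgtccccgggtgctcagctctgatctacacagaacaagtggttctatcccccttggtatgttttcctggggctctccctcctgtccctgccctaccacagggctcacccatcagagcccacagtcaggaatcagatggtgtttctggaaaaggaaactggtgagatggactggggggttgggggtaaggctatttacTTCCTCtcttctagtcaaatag
C5ar1: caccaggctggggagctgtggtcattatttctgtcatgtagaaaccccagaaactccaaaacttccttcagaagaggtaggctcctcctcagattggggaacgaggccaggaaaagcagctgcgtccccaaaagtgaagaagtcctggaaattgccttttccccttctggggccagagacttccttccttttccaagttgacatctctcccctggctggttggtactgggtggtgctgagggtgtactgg
The GAS match of Fcgr1, TTCCCAGAA, begins 109 bases upstream of the start. It was the only GAS match in the windows of the 7 genes, and 7.02% of 32851 promoter windows of this length hold one. A PU.1 core was found for Fcgr1, Fcgr3 and Fcgr4, so for 3 of 7 genes, against 23.25% of all windows. A match is a run of letters and does not show binding.

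After Treg ablation 4 of the 7 genes were lower at an adjusted p under 0.05 (edgeR quasi-likelihood test, Benjamini-Hochberg over all genes tested). These were Fcgr1 and C5ar1, each more than 2-fold lower, and C3ar1 and Fcgr3, which fell less. Across all genes tested, 12.3% passed as lower. Fcgr2b, Fcer1g and Fcgr4 did not pass. Passing as higher were 0 of the 7, where 13.5% of all genes did, and 25.8% of all genes passed in either direction. At an unadjusted p under 0.05 the edgeR counts were 5 lower and 0 higher, and DESeq2 and limma-voom each called 4 lower and 0 higher. The median log2 fold change of the 7 genes was −0.42, against −0.0062 for all genes tested. Tested against a fold of 1.5, 0 of the 7 passed as lower and 0 as higher, where 0.158% and 0.672% of all genes did.

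**Figure D1:**
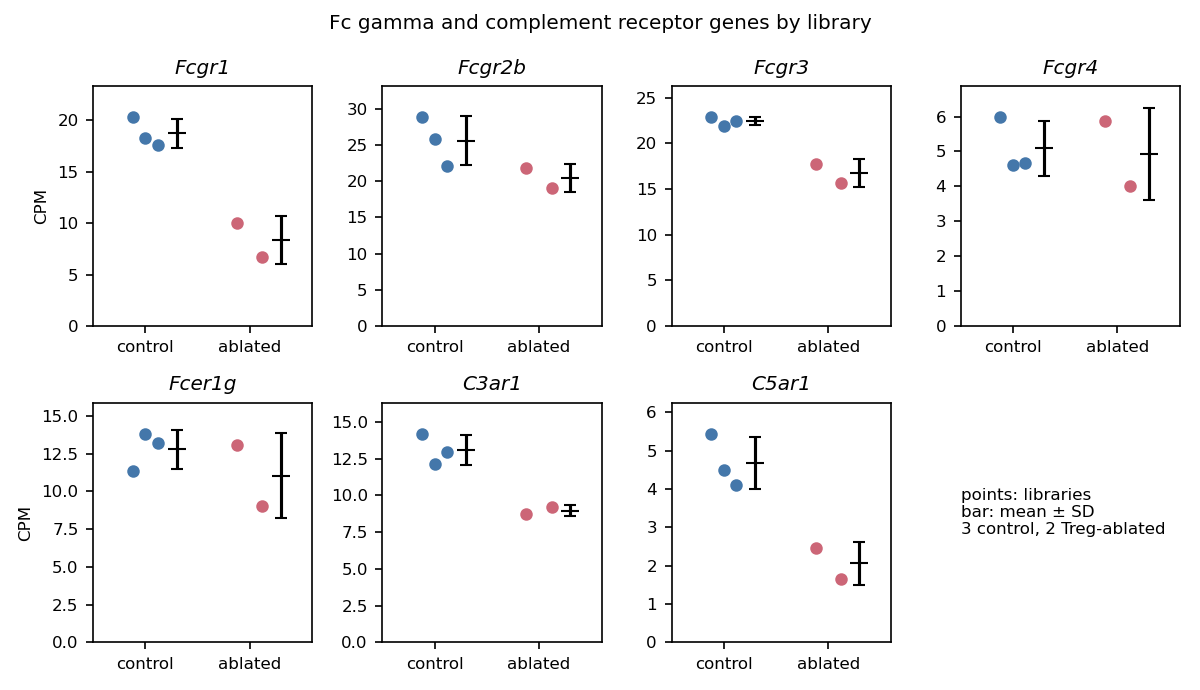
CPM (y axis, from 0) of each of the 7 genes in 3 control and 2 Treg-ablated libraries, with points for libraries and bars for mean ± SD. The groups do not overlap for Fcgr1, Fcgr2b, Fcgr3, C3ar1 and C5ar1, and they overlap for Fcgr4 and Fcer1g.

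Fcgr1 encodes CD64, the high-affinity receptor for immunoglobulin G (ENSMUSG00000015947, chromosome 3, 96282909 to 96293969, GRCm38). It had 10.02 and 6.71 CPM in Treg-ablated replicates 1 and 2, and 20.3, 18.2 and 17.6 CPM in control replicates 1, 2 and 3. Every Treg-ablated value lay below every control value, although the Treg-ablated pair differed from each other. The mean fell from 18.7 ± 1.40 (SD, n = 3) to 8.37 ± 2.34 CPM (n = 2), which is 2.21-fold lower (log2 fold change −1.14, SE 0.154, adjusted p = 0.00101). Leaving out each library in turn kept this call, with log2 fold changes from −1.48 to −0.90.

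Fcgr3 encodes CD16, a low-affinity activating receptor that natural killer (NK) cells also carry (ENSMUSG00000059498, chromosome 1, 171051174 to 171064935). Its CPM were 17.8 and 15.6 in the Treg-ablated libraries and 22.8, 21.9 and 22.4 in the controls. The groups did not overlap and the controls lay close together. The log2 fold change was −0.42 (SE 0.0977, adjusted p = 0.0119), or 1.34-fold lower. The call ended when either of 2 libraries was left out, although without control replicate 2 the fall was no smaller. Leaving out that control also cut the lower calls over all genes from 1787 to 554. Without Treg-ablated replicate 2 the log2 fold change was −0.33 (adjusted p = 0.0713), and without control replicate 2 it was −0.44 (adjusted p = 0.0543).

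Fcgr4 encodes an activating receptor for the mouse IgG2 subclasses (ENSMUSG00000059089, chromosome 1, 171018920 to 171029761). It lies between Fcgr2b and Fcgr3 on the chromosome. The Treg-ablated libraries had 5.86 and 4.00 CPM and the controls 5.98, 4.61 and 4.67 CPM. These ranges overlap almost entirely. The log2 fold change was −0.021 (SE 0.200, 95% interval −0.46 to 0.42, adjusted p = 0.949). Between 53 and 93 counts stood behind each value, and the interval leaves room for a change of either sign. Without Treg-ablated replicate 2 the value was 0.22, and without replicate 1 it was −0.34.

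Fcgr2b, the inhibitory receptor gene, had the most counts of the 7 over the 5 libraries together (ENSMUSG00000026656, chromosome 1, 170958617 to 170976547). It had 21.7 and 19.0 CPM after ablation and 28.8, 25.9 and 22.1 CPM in the controls. The groups were separate by a narrow margin, between Treg-ablated replicate 1 and control replicate 3. The log2 fold change of −0.33 (SE 0.121, 95% interval −0.59 to −0.059) did not pass (adjusted p = 0.0703). Without control replicate 3 it passed as lower (log2 fold change −0.42, adjusted p = 0.0197). It also passed with the filter of 1 count in any library (−0.34, adjusted p = 0.0131), with an offset on GC content (−0.42, adjusted p = 0.0333) and with the replicate number of the titles as a block (−0.43, adjusted p = 0.0204). The deposited files number the Treg-ablated libraries differently from the titles, so what that block pairs is uncertain.

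Fcgr2b and Fcgr3 share part of their sequence, so their counts are uncertain where reads were shared. Of the distinct 50-base stretches in GENCODE M21 transcripts of Fcgr3, 9.58% also occur in Fcgr2b. Of those of Fcgr2b, 6.95% occur in other genes, 166 of 395 of them in Fcgr3 and the rest in genes outside the 7. Fcgr1, Fcgr4, Fcer1g, C3ar1 and C5ar1 shared 0 stretches with transcripts of other genes. Counting used no strand option, but the only exon overlap with another gene was 155 bases of Fcgr2b with Gm38204, which had 10 counts over all 5 libraries.

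Fcer1g, the FcR gamma chain gene (ENSMUSG00000058715, chromosome 1, 171229572 to 171234365), had 13.1 and 9.05 CPM after ablation and 11.4, 13.8 and 13.2 CPM in the controls. Treg-ablated replicate 1 lay inside the control range and replicate 2 below it. The log2 fold change was −0.20 (SE 0.156, 95% interval −0.55 to 0.14, adjusted p = 0.362). This result turned on the Treg-ablated libraries. Without replicate 1 Fcer1g passed as lower (log2 fold change −0.51, adjusted p = 0.0437), and without replicate 2 the value was 0.026.

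C5ar1, the receptor gene for the anaphylatoxin C5a (ENSMUSG00000049130, chromosome 7, 16246743 to 16259540), was the lowest of the 7 in level. Its counts were 39 and 22 after ablation and 81, 90 and 59 without. Scaled to library size these were 2.46 and 1.66 CPM against 5.44, 4.51 and 4.11 CPM, with no overlap. The gene was 2.24-fold lower (log2 fold change −1.16, SE 0.227, adjusted p = 0.00528). The call was kept without any single library, with log2 fold changes from −1.49 to −0.92.

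C3ar1, the receptor gene for C3a (ENSMUSG00000040552, chromosome 6, 122847138 to 122856161), had 8.70 and 9.20 CPM after ablation. The controls had 14.2, 12.1 and 12.96 CPM, all above the Treg-ablated values. It was 1.46-fold lower (log2 fold change −0.54, SE 0.120, adjusted p = 0.00923) and stayed so without each library in turn (adjusted p from 0.0170 to 0.0386). The CPM groups did not overlap for 5 of the 7 genes, all with lower Treg-ablated values, where 25.6% of all genes tested were separated in that direction and 26.9% in the other.

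Levels can be compared between genes only per length of exon. That length covers all annotated exons of a gene, whichever transcripts were expressed, so the order between genes is approximate. Before division by length (5790 bases for Fcgr2b and 2589 for Fcgr1), Fcgr2b had more CPM than Fcgr1 in every library. In the controls Fcer1g was highest at 14.7 ± 1.48 CPM per kilobase (SD, n = 3), followed by Fcgr3 at 12.9 ± 0.262, and their ranges overlapped. Fcgr1 came next at 7.23 ± 0.539 CPM per kilobase. Fcgr2b and Fcgr4 followed at 4.42 ± 0.583 and 4.05 ± 0.617 with overlapping ranges, and then C3ar1 at 3.04 ± 0.240 and C5ar1 at 1.82 ± 0.266. After ablation Fcer1g and Fcgr3 were again highest and C3ar1 and C5ar1 lowest. Between them the order of means was turned, with Fcgr4 at 3.93 ± 1.05 CPM per kilobase (n = 2), Fcgr2b at 3.52 ± 0.335 and Fcgr1 at 3.23 ± 0.904, but the ranges of these 3 genes overlapped.

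**Figure D2:**
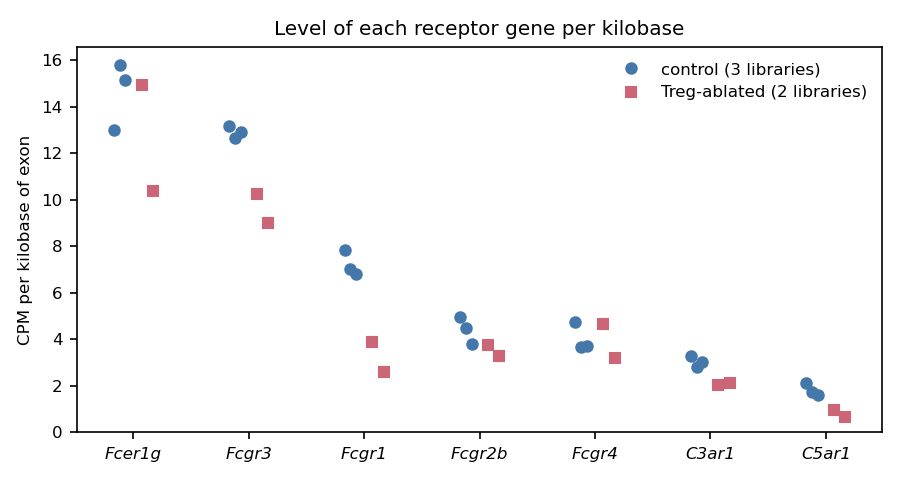
CPM per kilobase of exon (y axis, from 0) for the 7 genes, ordered by their control mean, with a point for each of 3 control and 2 Treg-ablated libraries. Mean Fcgr1 lies above Fcgr2b and Fcgr4 in the controls at 7.23 CPM per kilobase and below both after ablation at 3.23, where their ranges overlap.

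Ratios between receptors within a library do not depend on how libraries are scaled. Of 6 ratios of counts per kilobase, Fcgr4 to Fcgr1 and Fcgr1 to Fcgr2b had the largest log2 differences between groups (1.13 and −0.86). Fcgr4 to Fcgr1 was 1.21 and 1.23 in the Treg-ablated libraries and 0.608, 0.521 and 0.546 in the controls. Fcgr4 thus had fewer counts per kilobase than Fcgr1 in every control library and more in both Treg-ablated libraries. This crossing rests on the exon lengths (1256 bases for Fcgr4 and 2589 for Fcgr1). Before division Fcgr4 had fewer counts in every library, with 93 against 159 and 53 against 89 after ablation. Fcgr1 to the inhibitory receptor Fcgr2b was 1.03 and 0.790 after ablation and 1.57, 1.57 and 1.78 in the controls, again without overlap.

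The other activating receptors kept closer to Fcgr2b. Fcgr3 to Fcgr2b was 2.73 and 2.74 against 2.64, 2.83 and 3.39, so the Treg-ablated values lay inside the control range. Fcgr4 to Fcgr2b was 1.24 and 0.970 against 0.956, 0.820 and 0.974, with overlap. Fcer1g to the sum of Fcgr1, Fcgr3 and Fcgr4 was 0.795 and 0.701 against 0.504, 0.677 and 0.646, just separated. C5ar1 to C3ar1 was 0.473 and 0.302 against 0.643, 0.623 and 0.531, also separated. With 10 arrangements of the libraries the exact permutation test (two-sided) cannot go below 0.1. This exact permutation test gave p = 0.1 for Fcgr4 to Fcgr1, Fcgr1 to Fcgr2b and C5ar1 to C3ar1, the smallest possible value. Exact permutation p was 0.2 for Fcgr4 to Fcgr2b and for Fcer1g to the receptor sum, and 0.7 for Fcgr3 to Fcgr2b. Adjusted over the 6 ratios these exact permutation p-values were 0.2, 0.24 and 0.7, and the design could let 0 of the ratios pass.

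**Figure D3:**
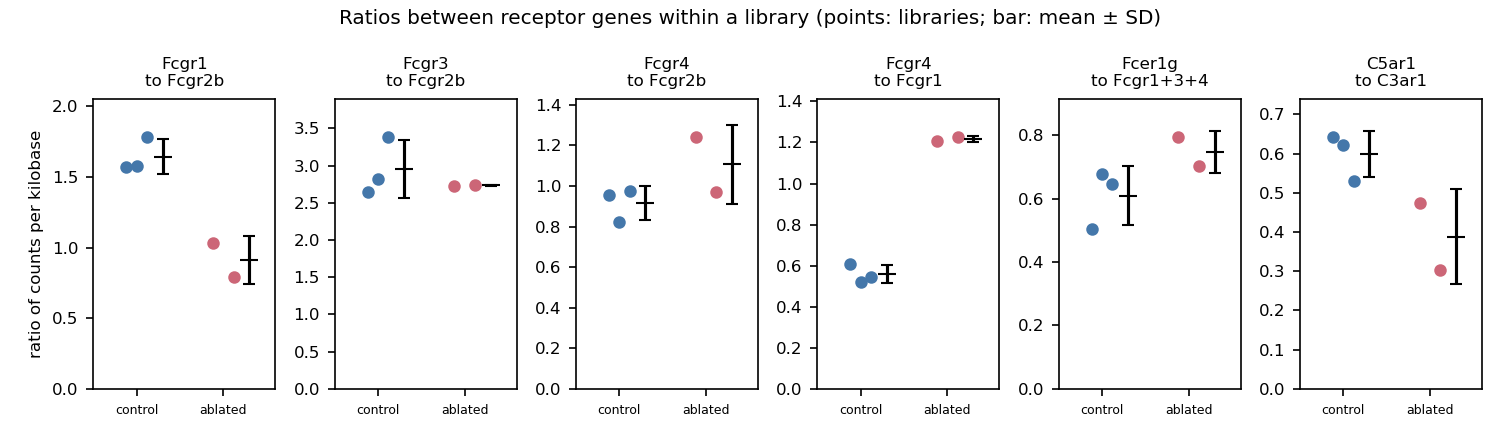
Ratio of counts per kilobase between receptor genes in the same library (y axes, from 0), with points for 3 control and 2 Treg-ablated libraries and bars for the arithmetic mean ± SD. Fcgr4 to Fcgr1 lies between 0.521 and 0.608 in the controls and at 1.21 and 1.23 after ablation.

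The receptor genes were set beside the macrophage content of the libraries, since 12 of the 16 mature macrophage markers tested were also lower (0 higher by edgeR, also 0 at an unadjusted p under 0.05 and 0 by DESeq2 and limma-voom). Their median log2 fold change was −0.68. With either Treg-ablated replicate 2 or control replicate 2 left out, 7 were lower. Apoe, which encodes apolipoprotein E, was 2.64-fold lower and Cx3cr1, the fractalkine receptor gene, 2.46-fold lower. Csf1r, whose product binds CSF-1, was 2.28-fold lower and Lyz2, encoding lysozyme M, 1.77-fold lower.

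Scaled to the summed counts of the 18 macrophage markers instead of library size, Fcgr1 (log2 fold change −0.74, SE 0.143, adjusted p = 8.97e-05) and C5ar1 (−0.76, SE 0.229, adjusted p = 0.00597) still passed as lower. The calls of Fcgr3 (−0.014, SE 0.115) and C3ar1 (−0.14, SE 0.136) ended. This scaling moved the median of all genes to 0.40, and 1.12% of all genes passed as lower and 61.3% as higher. Relative to that median all 7 genes lay lower, Fcgr4 by the least at a log2 fold change of 0.38. They did so with library size too, since the scaling moves all genes by about the same amount.

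Because Axl gave most of that sum, the scaling was repeated with the other 17 markers, of whose counts Lyz2 gave 42.1%, a choice made after seeing the data. Fcgr1 again passed as lower (log2 fold change −0.38, SE 0.172, adjusted p = 0.0302). C5ar1 did not pass (−0.40, SE 0.255, adjusted p = 0.130), and neither did C3ar1 (0.24, SE 0.173, adjusted p = 0.183). Fcgr4 (0.74, SE 0.210, adjusted p = 0.000631), Fcer1g (0.56, SE 0.168, adjusted p = 0.00123), Fcgr2b (0.45, SE 0.157, adjusted p = 0.00509) and Fcgr3 (0.36, SE 0.160, adjusted p = 0.0302) passed as higher relative to the marker sum. The median of all genes moved to 0.78 here, and 0.219% of all genes passed as lower and 87.5% as higher. That all 7 receptor genes lay below this median carries over from the library size scaling and is no separate result. The direction of Fcgr2b, Fcgr3, Fcgr4, Fcer1g and C3ar1 thus depends on what the counts are scaled to, and that of Fcgr1 and C5ar1 was lower in all 3 scalings.

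**Figure D4:**
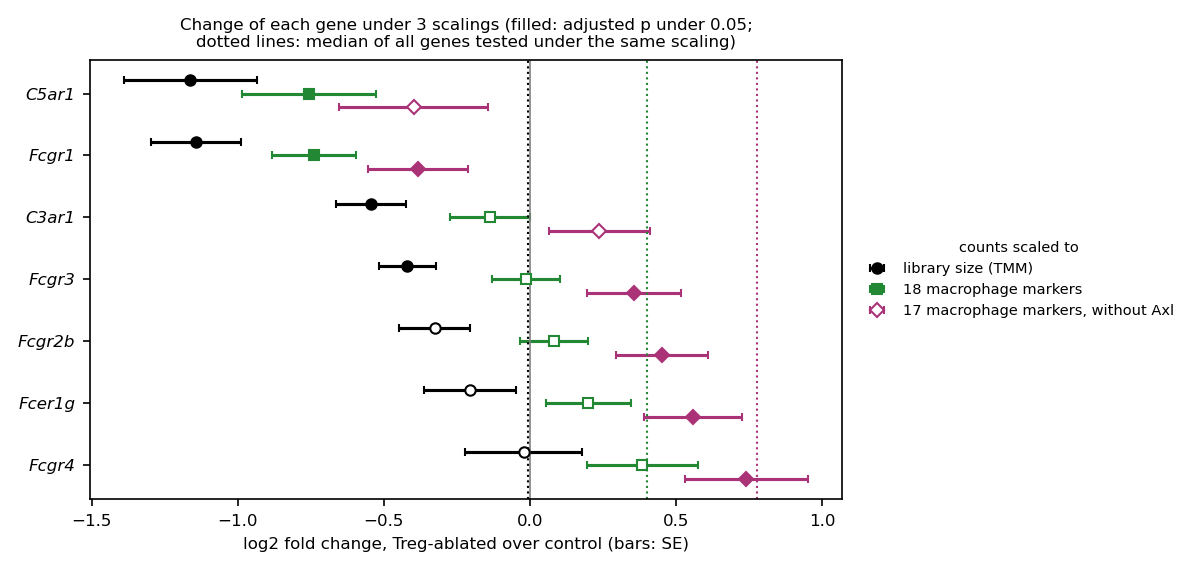
Log2 fold change, Treg-ablated over control (x axis), of the 7 genes with counts scaled to library size, to 18 macrophage markers or to 17 without Axl. Bars are SE, filled symbols have an adjusted p under 0.05, and dotted lines mark the median of all genes under each scaling (−0.0062, 0.40 and 0.78); Fcgr1 is filled and below 0 in all 3.

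Other cells that may be in the libraries also carry these receptors, and most tested markers of NK, mast and B cells were higher. NK cells express Fcgr3 and Fcer1g, and 11 NK cell markers summed to 73.8 to 77.0 CPM after ablation against 23.0 to 26.6 CPM in the controls, with 8 of 10 tested higher. Gzmb gave 32.05% and Gzma 13.98% of those counts, and Ncr1 did not pass (log2 fold change 0.27, edgeR adjusted p = 0.555). T cell markers were also higher, 8 of 9 tested, at 42.6 to 45.5 against 11.15 to 14.97 CPM. Which of these 2 cell types gave the rise of the NK list was not tested. Mast cells express Fcer1g, and 9 mast cell markers summed to 47.9 to 52.3 against 22.9 to 31.2 CPM, with 7 of 8 tested higher (4 without Treg-ablated replicate 2 or without control replicate 2, and 4 by DESeq2). B cells express Fcgr2b, and 7 B cell markers summed to 9.39 to 14.6 against 3.51 to 4.88 CPM, with 4 of 6 tested higher (0 by DESeq2). Neutrophils carry Fcgr3, Fcgr4 and C5ar1, and 11 neutrophil markers summed to 10.3 to 12.6 against 8.85 to 9.66 CPM, while Ly6g was at most 0.189 CPM. Of 4 neutrophil markers tested 1 was higher, Retnlg, and it did not pass by DESeq2, with the GC offset, or when Treg-ablated replicate 1 or control replicate 1 or 2 was left out. The part of these cells in the receptor values was not tested. For the NK cell, mast cell, B cell and neutrophil lists the defining markers were above 0 in at least 1 library.

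Genes induced by interferon gamma were higher in the same libraries in which Fcgr1 was lower. Of 16 listed, 15 were higher and 1 did not pass, with a median log2 fold change of 1.149. Cxcl10, a chemokine gene, rose 3.26-fold and Gbp4, a guanylate-binding protein gene, 3.62-fold. Spi1, which encodes PU.1 and is one of the macrophage markers, was 1.48-fold lower (adjusted p = 0.0179) and is named for the motif searched, after its value was seen.

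**Figure D5:**
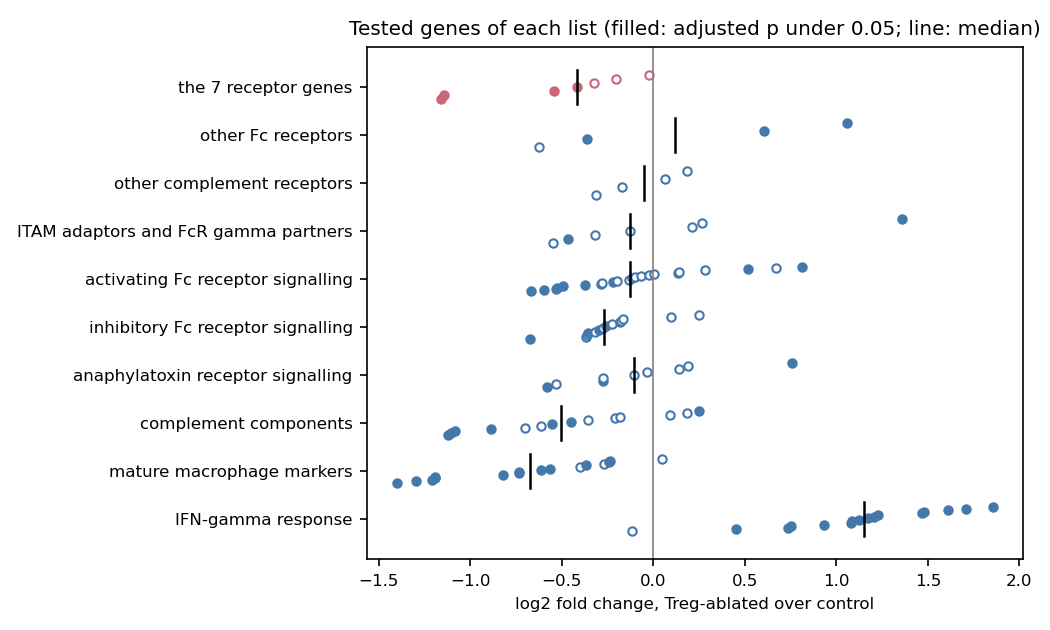
Log2 fold change, Treg-ablated over control (x axis), of every tested gene in 10 lists, with filled points at an adjusted p under 0.05 and a line at each median. The 7 receptor genes have a median of −0.42, mature macrophage markers −0.68, complement components −0.50 and interferon gamma response genes 1.149.

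Among the ligands, immunoglobulin transcripts rose from low levels. Ighg2c, a constant region gene of IgG2c, had 307 and 309 counts after ablation and 2, 12 and 5 in the controls. Ighg2b had 228 and 239 counts against 16, 9 and 10. Of 7 immunoglobulin and pentraxin genes tested, all 7 were higher (5 by DESeq2). Complement component genes had a median log2 fold change of −0.50, with 6 of 14 tested lower, 1 higher and the other 7 not past the threshold. C3, the precursor of C3a, had 56.6 and 56.1 CPM after ablation against 83.8, 83.8 and 80.5 CPM, a 1.47-fold fall (adjusted p = 0.000630). C1qa and C1qc, subunits of C1q, fell 2.18-fold and 2.12-fold, and C4b, the fourth component, 2.15-fold. The 1 higher gene, C1s1, a protease of the C1 complex chosen after its value was seen, did not pass without Treg-ablated replicate 2 or control replicate 2, with the GC offset, with the replicate block or by DESeq2.

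Other receptors for the same ligands were read against the 25.8% of all genes that passed in either direction. Of 4 other Fc receptor genes tested of 12 listed, 1 was lower and 2 higher. Fcgrt, which encodes the neonatal Fc receptor that recycles immunoglobulin G, was 1.29-fold lower (log2 fold change −0.36, adjusted p = 0.00867). Trim21, a cytosolic antibody receptor gene also induced by interferons, was 1.52-fold higher (adjusted p = 0.00224), and Fcer1a, the IgE-binding chain of mast cells, 2.08-fold higher from about 1 CPM (adjusted p = 0.0406). The Fcgrt call ended without control replicate 2 and with the replicate block. Only 1 gene was higher without Treg-ablated replicate 2, without any 1 of the controls, by DESeq2 or with the GC offset, and 4 were with the filter of 1 count in any library, which tests more genes. Of 4 other complement receptor genes tested, 0 passed by edgeR, DESeq2 or limma-voom (2 lower and 1 higher at an unadjusted edgeR p under 0.05). Itgam and Itgb2, which together form complement receptor 3, gave −0.32 (SE 0.127) and −0.17 (SE 0.0671) as log2 fold changes. Without Treg-ablated replicate 1, and likewise with the filter of 1 count in any library, 1 of the 4 passed as lower.

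Tyrobp, which encodes the ITAM adaptor DAP12, had 19.8 and 15.01 CPM against 25.3, 23.0 and 24.4 CPM, without overlap (log2 fold change −0.47, SE 0.120, adjusted p = 0.0177). This call ended with the GC offset and when either Treg-ablated replicate 2 or control replicate 2 was left out. Cd247, the ITAM chain of T and NK cells, was 2.56-fold higher (adjusted p = 0.0183). It did not pass under DESeq2 or when either of the same 2 libraries was left out. The remaining 5 of 7 genes tested in that list did not pass, and 2 of the 7 were lower with the replicate block.

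Signalling genes downstream of the Fc receptors went both ways. Of 22 activating signalling genes 7 were lower, 2 higher and 13 did not pass (median log2 fold change −0.12), where 12.3% of all genes were lower and 13.5% higher. Fgr, a Src-family kinase gene, was 1.41-fold lower (adjusted p = 0.0174) and Sh3bp2, an adaptor gene, 1.44-fold lower (adjusted p = 0.0179). Rac2, a small GTPase gene of blood cells in general, was 1.75-fold higher and Lcp2, the adaptor SLP-76 that T cells also use, 1.43-fold higher. These lower calls were fragile, with 0 without Treg-ablated replicate 2, 1 without control replicate 1 or 2, 3 without control replicate 3, 2 with the GC offset, 3 with the replicate block and 4 by DESeq2. Without Treg-ablated replicate 1, without control replicate 2 or by DESeq2, 1 gene was higher.

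Of 14 inhibitory signalling genes 4 were lower and 0 higher by edgeR (0 higher also at an unadjusted p under 0.05, by DESeq2 and by limma-voom). Among all genes tested, 12.3% were lower and 13.5% higher. Inpp5d, which encodes SHIP1, had 21.6 and 21.1 CPM against 26.8, 28.9 and 26.0 CPM (log2 fold change −0.36, SE 0.0902, adjusted p = 0.0168). Sirpa, an inhibitory receptor gene of macrophages, was 1.595-fold lower (adjusted p = 0.00585). Without control replicate 2, 1 gene of this list was lower, and 2 were with the GC offset. Of 9 genes for signalling by anaphylatoxin receptors, 2 were lower and 1 higher, to be read against the same shares of all genes. Arrb1, encoding beta-arrestin 1, was 1.496-fold lower (adjusted p = 0.00293) and Rgs1, a brake on G protein signalling that lymphocytes also express, 1.69-fold higher (adjusted p = 0.00206). Lower genes numbered 1 without control replicate 2, with the GC offset or with the replicate block, and 4 with the filter of 1 count in any library. Higher genes numbered 2 without control replicate 1 and when scaled to library size alone.

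The genes most like each receptor were found among 11546 genes by the root mean square distance between log2 CPM profiles over the 5 libraries, each centred on its control mean. Closest to Fcgr1 were Cmklr1, the chemerin receptor gene, at a distance of 0.0625, C5ar1 at 0.0636 and Cd93, a cell surface glycoprotein gene, at 0.0771. Fcgr1 was in turn the gene closest to C5ar1. The closest to Fcgr4 were Clec12a, an inhibitory lectin receptor gene of myeloid cells (0.0687), Csf2rb2, a cytokine receptor chain gene (0.0739), and Atl1 (0.0746). Fcgr3 was closest to Irf7, an interferon regulatory factor gene, at 0.0186, and C3ar1 to Slc1a4, an amino acid transporter gene, at 0.0431. Fcgr2b was closest to Syt11 (0.0328) and Fcer1g to Ass1, an arginine synthesis gene (0.0253). These names describe the profiles over 5 libraries only.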

How the data were processed

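RNA-seq gene counts of 5 libraries (2 Treg-ablated, 3 control) were used, grouped by their titles. The deposited values are raw counts per gene, which per the file headers came from featureCounts 1.6.2 run over exons of a filtered Ensembl 83 annotation of GRCm38, for read pairs, with no strand option and none for reads with several matches. FastQC 0.11.5, Trimmomatic 0.33, DESeq2 1.16.1 and Subread 1.6.2 are listed in the submitters' processing notes.

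Symbols were joined by Ensembl identifier (46488 of 46983 genes). Genes kept by filterByExpr (14580) received TMM factors, and edgeR 4.0.16 (R 4.3.3) gave quasi-likelihood F tests without a block at an adjusted p of 0.05. The SE is the absolute log2 fold change over the root of F. The test was also run on counts simulated with dispersions estimated from these data, which does not bear out any single call. Replicates differed beyond sampling noise (chi-square per degree of freedom 3.88 to 7.24). A count of 3 corresponds to 0.150 to 0.226 CPM, and such floors cover counting error only.

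Named genes are the 7 receptor genes, up to 4 genes per list with the smallest p, and the 3 nearest profiles per receptor among genes of at least 1 CPM, with log2 CPM at a prior count of 2. Others are marked as chosen later. The receptor genes and lists were chosen with earlier results of these data known. Alternatives were RLE factors, library size alone, macrophage marker sums, other filters, DESeq2 1.42.0, limma-voom (limma 3.58.1), a fold of 1.5, a replicate block, a GC offset and leaving out each library, where a lone Treg-ablated library is assumed to vary like the controls. Some results are not reported here.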

Additional observations from a re-analysis of the deposited data

How the results depend on the processing

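Of the 7 receptor genes, 4 were lower in the main test, 3 to 5 when a library was left out (5 where Fcer1g or Fcgr2b also passed), 2 when scaled to macrophage marker sums, 1 without Axl (chosen after seeing the data) and 0 against a fold of 1.5, a stricter question. Passing as higher were 4 without Axl and 0 in every other alternative. All 1787 lower and 1971 higher genes became 23 and 98 against a fold of 1.5, and 554 to 1538 lower and 812 to 1687 higher with a library left out, fewest without control replicate 2.

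Signs turned with the 18-marker and 17-marker scalings for Fcgr2b (0.081 and 0.45), Fcgr4 (0.38 and 0.74) and Fcer1g (0.20 and 0.56), and with the 17 markers for Fcgr3 (0.36) and C3ar1 (0.24). By construction these scalings raise the values of all genes. The cause of the other shifts was not tested. With a library left out Fcgr4 ranged from −0.34 to 0.22 and Fcer1g from −0.51 to 0.026. The 6 ratios kept their direction, but with a library left out the log2 difference ranged from −0.18 to −8.93e-06 for Fcgr3 to Fcgr2b (the latter without control replicate 3), 0.085 to 0.44 for Fcgr4 to Fcgr2b, 0.17 to 0.40 for the Fcer1g ratio and −0.98 to −0.33 for C5ar1 to C3ar1. Without division by length the Fcer1g ratio differed by 0.40 in place of 0.31 (log2).

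With the replicate number of the titles as a block, 1116 genes were lower and 1296 higher, and 5 receptor genes were lower. Nothing in the labels pairs the libraries, the deposited files number the Treg-ablated libraries differently from the titles, and deviations of same-numbered libraries correlated at −0.226 and −0.0213.

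Depth limits Fcgr4 and C5ar1 most, with 53 to 93 and 22 to 90 counts per library.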

Other observations

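Monocyte and dendritic cell genes mark other cells that carry these receptors. Of 8 monocyte markers 4 were lower and 2 higher, where 12.3% of all genes tested were lower and 13.5% higher. Ccr2, the chemokine receptor gene of inflammatory monocytes, had 15.45 and 15.39 CPM after ablation against 41.45, 36.9 and 30.4 CPM in the controls, a 2.35-fold fall (edgeR adjusted p = 0.000313). F13a1, a coagulation factor gene, was 2.74-fold lower. Without control replicate 2 the counts were 2 lower and 1 higher, and 1 gene was higher when either Treg-ablated replicate 1 or control replicate 3 was left out, with the replicate block, with the GC offset and by DESeq2. Of 7 dendritic cell markers tested, 1 was higher and 1 lower, which is near those shares of all genes. Ccr7, the receptor gene of migrating dendritic cells, was 1.61-fold higher, and Cd209a was 1.97-fold lower. Cd209a did not pass when Treg-ablated replicate 1 or control replicate 2 was left out, and 2 dendritic cell genes were higher when Treg-ablated replicate 2 was, or with the filter of 1 count in any library.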
